A study of Bubalus bubalis with 6 samples.

Results

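Molecular chaperones and the enzymes that defend a cell against oxidants were examined for DNA methylation in buffalo sperm. The 94 genes were chosen by their names on the array, with earlier results of these data known. They cover the HSP70 and HSP110, HSP90, HSP60 and HSP10 and small heat shock proteins, the DNAJ co-chaperones and the subunits of the CCT chaperonin. They also cover the BAG co-chaperones, the heat shock factors, the protein disulfide isomerases, the peroxiredoxins, glutathione peroxidases, thioredoxins and glutathione S-transferases, and the glyoxalase GLO1. HSPA2 was left out by the rule. These 94 genes are among 7932 gene names on the array and carry 202 of its 19762 named probes, from 1 probe (43 genes) to 7 (HSPB3). The pattern for superoxide dismutases matched 0 genes on the array.

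Sperm DNA came from cryopreserved semen of 6 water buffalo bulls, 3 described as high-fertile (named HF2, HF3 and HF5) and 3 as subfertile (SF1, SF4 and SF5), and each bull gave 1 array. HF5 and SF5 are different bulls. Neither group received a treatment that the labels record, and the labels give no age, breed line or fertility figure. An antibody to 5-methylcytosine was used to enrich methylated fragments (meDIP), which were labelled with Cy5 and hybridised together with the same bull's untreated input DNA, labelled with Cy3. The value used throughout is log2(IP/input), where IP is the immunoprecipitated DNA, with the median probe of each array set to 0. A positive value means more antibody-bound DNA relative to input than at the median probe. The scale is not a percentage of methylated cytosines. A probe was tested where input DNA gave a signal well above background in each of the 6 bulls, and a gene's value is the mean over its tested probes. The p-values set a difference against the spread between these 6 bulls. The spread of each gene or probe was first drawn toward a spread pooled over all genes or probes tested.

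Chaperones keep other proteins folded. HSP70 proteins bind unfolded stretches of a client in a cycle driven by ATP, the J domain of a DNAJ protein starts that cycle, and BAG and HSP110 proteins release the nucleotide and reset it, while the CCT ring folds actin and tubulin, which build the sperm tail. In the endoplasmic reticulum HSPA5 and the disulfide isomerases fold secreted and membrane proteins. Sperm carry many polyunsaturated lipids and little cytoplasm, so they depend on peroxiredoxins, glutathione peroxidases, thioredoxins and glutathione S-transferases to remove peroxides and their products, and GLO1 clears methylglyoxal, a reactive by-product of sugar breakdown. Mature sperm are nearly silent in transcription, so a methylation value here describes the DNA that a bull delivers, not the level of a protein.

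The probes that carry the results are printed first, because later paragraphs also sort probes by the number of CpGs in their 60 bases. They were read from the deposited array files, and CG in capitals marks each CpG. The positions are those written in the files, and neither the genome build nor the strand is stated in the sources used here. The first 6 belong to the 4 genes whose high-fertile and subfertile bulls did not overlap, with the second, dimmer GLO1 probe and both DNAJC30 probes beside them.
GLO1 tested probe, chr23:13014896-13014955: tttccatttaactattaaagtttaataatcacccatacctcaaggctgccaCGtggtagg
GLO1 dim probe, chr23:13014676-13014735: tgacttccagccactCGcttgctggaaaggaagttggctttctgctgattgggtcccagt
DNAJC30 probe with 5 CpGs, chr25:35649404-35649463: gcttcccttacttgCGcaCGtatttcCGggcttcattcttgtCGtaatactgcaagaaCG
DNAJC30 probe with 2 CpGs, chr25:35650770-35650829: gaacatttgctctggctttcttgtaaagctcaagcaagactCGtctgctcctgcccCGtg
HSPA9, chr7:49225475-49225534: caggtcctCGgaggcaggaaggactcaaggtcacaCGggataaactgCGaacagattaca
DNAJC5, chr13:54588007-54588066: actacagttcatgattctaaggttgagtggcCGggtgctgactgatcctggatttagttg

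The next 7 belong to genes, or are single probes, called between scan dates, and the last is a second HSPH1 probe for comparison. Those of TXNL1, DNAJC27, DNAJC19 and DNAJC18 hold no CpG at all.
GSTO1, chr26:25098408-25098467: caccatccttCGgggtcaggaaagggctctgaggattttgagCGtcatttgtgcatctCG
TXNL1, chr24:58182464-58182523: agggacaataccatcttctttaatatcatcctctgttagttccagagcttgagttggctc
DNAJC27, chr11:76451294-76451353: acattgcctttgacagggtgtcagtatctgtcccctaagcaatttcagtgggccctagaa
DNAJC19, chr1:88092522-88092581: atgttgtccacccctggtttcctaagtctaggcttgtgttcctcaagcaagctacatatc
DNAJC18, chr7:50025583-50025642: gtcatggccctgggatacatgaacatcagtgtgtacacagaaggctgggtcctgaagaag
HSPA5, chr11:99543945-99544004: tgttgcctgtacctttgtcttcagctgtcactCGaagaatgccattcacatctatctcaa
HSPH1 probe with 1 CpG, chr12:29607981-29608040: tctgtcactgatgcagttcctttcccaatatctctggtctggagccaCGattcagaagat
HSPH1 probe with 4 CpGs, chr12:29596146-29596205: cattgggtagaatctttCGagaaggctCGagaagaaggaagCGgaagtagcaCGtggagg

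The arrays parted by scan date. HF2, HF3 and SF4 were scanned on a first date, and HF5, SF1 and SF5 on later dates; a scan date is not a date of extraction. HF5 and SF5 shared 1 slide and a scan date, SF1 was scanned on another of the later dates, and SF1 and the 3 bulls of the first date shared a second slide, so slide and scan date cannot be fully told apart. Each set of dates holds both groups, so the groups were also compared with the scan date as a block and within each set of dates. The spots of these 202 probes were dimmer on the first date, as were those of all named probes. IP signal was well above background at 21.8% of the 202 in HF2, 42.6% in HF3 and 28.2% in SF4. On the later dates the shares were 49.5% in HF5, 69.8% in SF1 and 56.9% in SF5. Over all named probes they were 23.2%, 38.9% and 29.4% against 49.7%, 64.0% and 54.6%, in the same order of bulls. Of the 202 probes, 90 passed the filter on input signal (44.6%, against 38.7% of all named probes), and they cover 55 of the 94 genes (58.5%, against 54.0% of all named genes). Of those 55 genes, 33 rest on 1 probe, 13 on 2 and 9 on 3 or more. The probes that passed held 2.21 CpGs on average and the other 112 held 1.01.

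**Figure D1:**
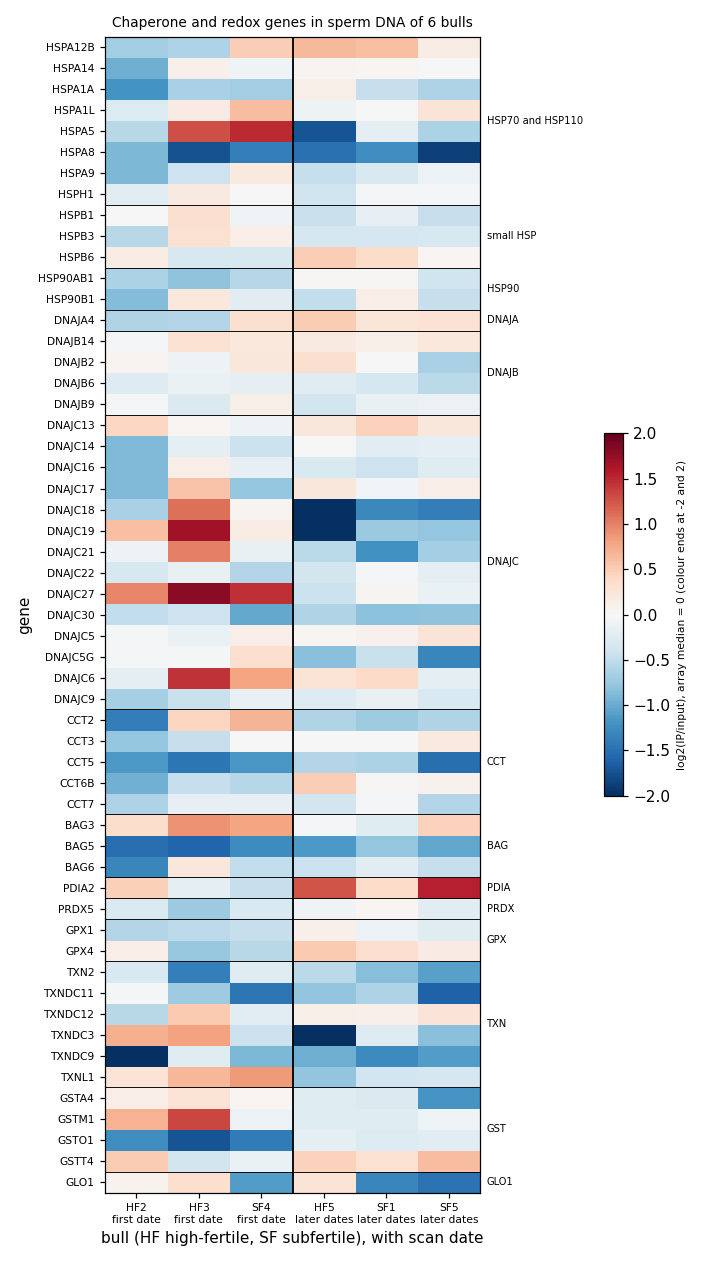
Log2(IP/input) of the 55 genes with a tested probe (rows, by family) in the 6 bulls (columns, first scan date on the left), with the array median at 0 and colours ending at -2 and 2. DNAJC18, DNAJC19, DNAJC27, HSPA5 and TXNL1 are redder on the left than on the right, GSTO1 shows the reverse, and GLO1 is blue in the 3 subfertile bulls alone.

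Between high-fertile and subfertile bulls, 24 of the 55 genes had a higher mean in the high-fertile bulls and 31 a lower one, and the median difference was -0.02 on the log2 scale, as it was over all 4286 tested genes (-0.02). With limma and Benjamini-Hochberg adjustment 0 of the 55 genes passed, which is the background share as well (0 of 4286 genes, or 0%). At an unadjusted p below 0.05 stood 1 of the 55, GLO1, against 34 of 4286 genes (0.793%). With the scan date as a block 0 passed again, and 2 of the 55, GLO1 and HSPA5, had an unadjusted p below 0.05 against 2.66% of all genes. The values of the 2 groups did not overlap at 4 of the 55 genes (7.27%), against 166 of 4286 genes (3.87%, with 1.94% in each direction): GLO1 and DNAJC30 were higher in the high-fertile bulls, and HSPA9 and DNAJC5 lower.

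The 95% confidence interval of the difference lay within 1 log2 unit of 0 for 25 of the 55 genes, and for 35 with the scan date as a block. For the other genes except GLO1, and except HSPA5 with the block, the unadjusted interval held 0 and reached past a difference of that size. The test of whether the group difference itself changed between scan dates called 0 of the 55 genes, as it did over all genes (0%; 179, or 4.18%, at an unadjusted p below 0.05).

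**Figure D2:**
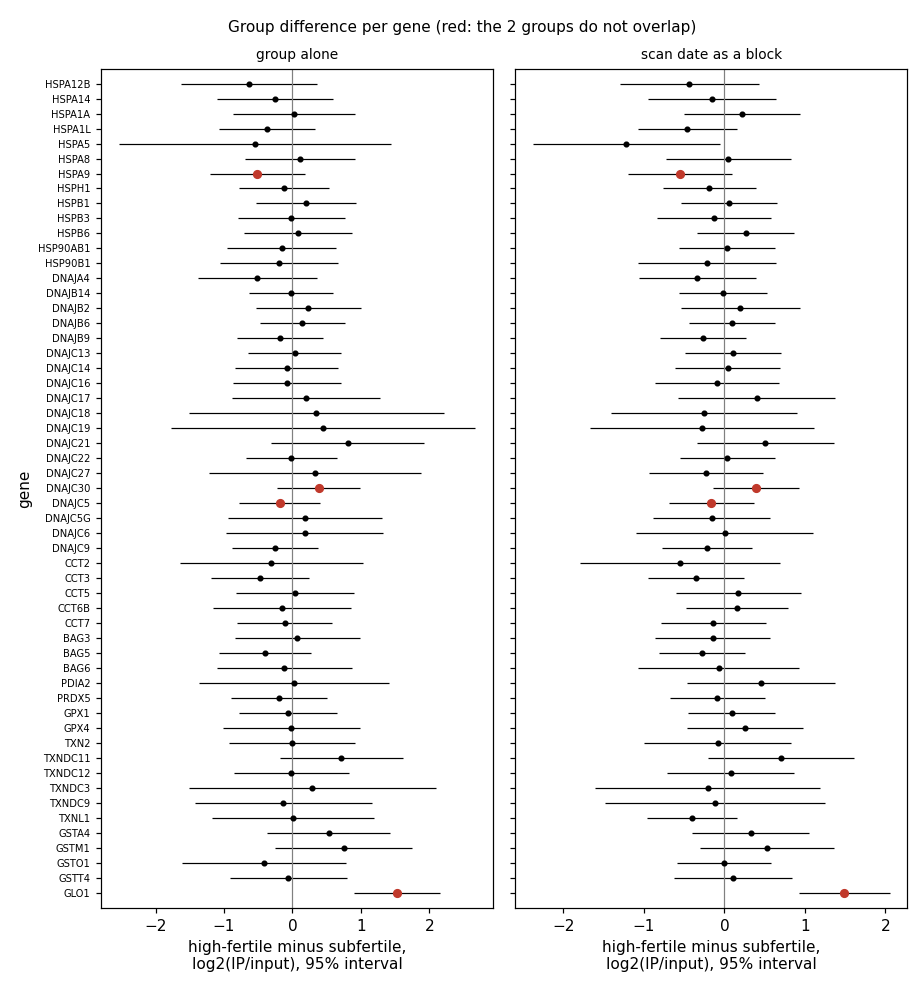
High-fertile minus subfertile difference in log2(IP/input) for each of the 55 genes with its 95% confidence interval, fitted with the group alone (left) and with the scan date as a block (right); red points mark the 4 genes whose groups do not overlap. GLO1 at 1.53 and 1.49 lies clear of 0 in both panels before adjustment, and all other intervals cross 0 except that of HSPA5 on the right.

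GLO1, which earlier results of these data had already named, showed the largest difference of the 55. At its tested probe log2(IP/input) was 0.07, 0.34 and 0.27 in HF2, HF3 and HF5 and -1.30, -1.12 and -1.47 in SF1, SF4 and SF5. The groups are therefore separated by over 1 log2 unit, and within a group the bulls lie close together on both sets of scan dates: the means were 0.23 ± 0.14 (SD, n = 3) and -1.30 ± 0.17 (SD, n = 3). The difference was 1.53 (SE 0.27; limma, unadjusted p = 0.000641, adjusted p = 0.99989 over all 4286 genes). With the scan date as a block it was 1.49 (SE 0.24, limma adjusted p = 0.897). It was 1.33 on the first date, with an adjusted p of 0.99975 from limma, and 1.65 on the later dates, with 0.00457. The later value sets HF5 alone against 2 bulls with 1 residual degree of freedom, and IP was not well above background in HF5. With the slide as a block the difference was 1.53, and within the slides it was 1.74 (HF5 against SF5, with no test) and 1.42 (2 bulls a group). Leaving out each bull in turn kept it between 1.44 and 1.61, with adjusted p from 0.484 to 0.99995 in limma.

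Both channels contributed to that difference. The IP signal, on the log2 scale with the array median at 0, was -0.81, -0.20 and -2.33 in HF2, HF3 and HF5 and -1.72, -1.11 and -3.63 in SF1, SF4 and SF5. The input signal was -1.07, -0.60 and -2.68 against -0.48, -0.03 and -2.37. Neither channel alone separates the groups, and the group means differed by 1.04 in IP and by -0.49 in input. The IP signal was well above background in HF3 and SF1 and in none of the other 4 bulls. With normexp background correction, which adds an offset of 50 to every signal, the difference was 0.50.

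The other GLO1 probe lies 220 bases away and holds 1 CpG as well. Its input was well above background in 3 of 6 bulls, so it was not tested, and its ratios were 0.46, 1.71 and -1.14 in HF2, HF3 and HF5 and -0.37, -0.47 and -1.02 in SF1, SF4 and SF5. HF5, which lay with its group at the first probe, lay below all 3 subfertile bulls here. With both probes averaged and no filter the difference was 1.24, and 1.02 with the scan date as a block added. Within 500 bases of the tested probe there were 0 tested probes without a gene name, so no neighbour bears on it.

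**Figure D3:**
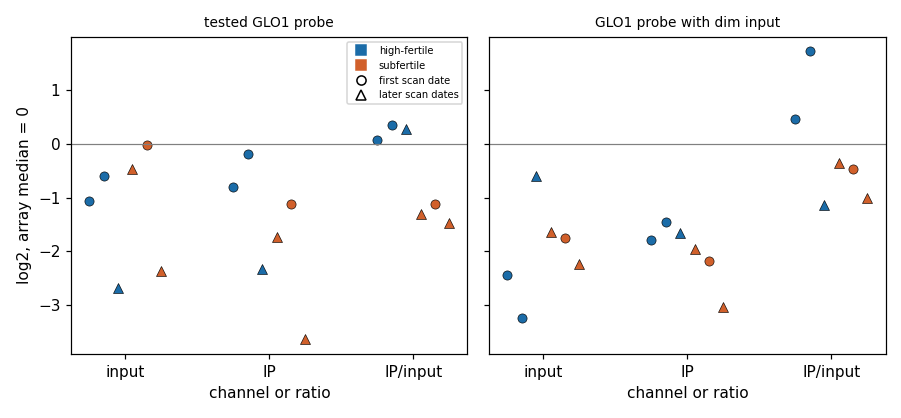
Input signal, IP signal and their log2 ratio, each with the array median at 0, for the tested GLO1 probe (left) and the dimmer one (right), 1 point per bull, coloured by group and shaped by scan date. At the tested probe the ratio separates the groups (0.07 to 0.34 against -1.47 to -1.12) while the single channels overlap; at the dimmer probe the ratios overlap.

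DNAJC30, a mitochondrial J-domain protein, also had non-overlapping groups. Its means were -0.49, -0.42 and -0.61 in HF2, HF3 and HF5 and -0.83, -1.03 and -0.81 in SF1, SF4 and SF5, a difference of 0.38 (SE 0.26; limma adjusted p = 0.99989). All 6 values are below the array median. The IP signal was well above background at 1 of 6 spots on the first date and at 6 of 6 on the later dates. In HF2 and SF4 it was so at neither probe, so the values of these bulls are not exact. Neither of its 2 probes separated the groups alone. The probe with 5 CpGs ran from -1.27 to -0.77 in high-fertile and from -2.82 to -0.63 in subfertile bulls, and the probe with 2 CpGs ran from -0.44 to 0.36 and from -1.03 to 0.76. The 6 tested unnamed probes within 500 bases differed by -0.06 between the groups.

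HSPA9, the HSP70 of mitochondria, was lower in the high-fertile bulls. Its means were -0.89, -0.42 and -0.45 in HF2, HF3 and HF5 and -0.31, 0.20 and -0.11 in SF1, SF4 and SF5. The closest bulls of the 2 groups, HF3 and SF1, are nearly level, and the difference of -0.51 (SE 0.30) did not pass (limma adjusted p = 0.99989). Its probe with 3 CpGs, printed above, separated the groups further, at -0.68, -0.59 and -0.67 against -0.22, 0.12 and 0.05, while the probe with 4 CpGs that overlaps it did not separate them. With no filter, which adds a probe without CpGs and with a dim input, the gene's difference turned to 0.24.

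DNAJC5, the cysteine string protein of secretory vesicles, differed by -0.19 (SE 0.25; limma adjusted p = 0.99989). Its values were -0.02, -0.13 and 0.04 in HF2, HF3 and HF5 and 0.08, 0.13 and 0.25 in SF1, SF4 and SF5, all close to the array median. The 10 tested unnamed probes around it differed by -0.22 and their groups overlapped. Here a very small spread separates the groups, not a large difference.

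Single probes gave a share close to the background. The groups did not overlap at 4 of the 90 tested probes (4.44%), against 5.78% of all 110686 tested probes, and limma called 0 of the 90 (0% of all probes; 3 of the 90 had an unadjusted p below 0.05, against 1.84% of all). They are the GLO1, HSPA9 and DNAJC5 probes above and a DNAJB6 probe without CpGs at chr4:122897513-122897572. DNAJB6, a J-domain protein that holds back aggregation, had -0.12, 0.09 and -0.04 there in HF2, HF3 and HF5 and -0.51, -0.57 and -1.35 in SF1, SF4 and SF5, a difference of 0.78 (SE 0.33; limma adjusted p = 0.99998). The probe that begins 35 bases further on and overlaps it differed by -0.05, and the 37 tested unnamed probes within 500 bases of the gene's tested probes by -0.07.

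The 9 genes measured by 3 or more probes are the best sampled of these families, and their differences lay between -0.20 and 0.14. Among chaperones, HSPH1 (an HSP110 nucleotide exchange factor) was at -0.12 (SE 0.28), HSPB3 and HSPB6 (small heat shock proteins of muscle) at -0.01 (SE 0.34) and 0.08 (SE 0.34), and the chaperonin subunit CCT5 at 0.04 (SE 0.37). Among co-chaperones, DNAJB14 was at -0.02 (SE 0.26), DNAJB6 at 0.14 (SE 0.26), DNAJC22 at -0.02 (SE 0.28) and BAG6, which guards tail-anchored proteins and is needed in spermatogenesis, at -0.12 (SE 0.42). PRDX5, a mitochondrial and peroxisomal peroxiredoxin, was at -0.20 (SE 0.30). In limma each had an adjusted p of 0.99989, and each of the 9 had overlapping groups. DNAJB14 varied least, from -0.02 to 0.31 over the 6 bulls, and BAG6 most, from -1.31 in HF2 to 0.23 in HF3. All 9 changed sign under at least 1 alternative treatment of the data.

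By family, 0 genes passed the test in any of them, and the counts by sign can be set against 2238 of all 4286 genes lower in the high-fertile bulls. Of the 8 HSP70 and HSP110 genes 6 were lower in the high-fertile bulls (median -0.31), of the 5 CCT subunits 4 were lower (median -0.15), and both HSP90 genes were lower (median -0.18). Of the 14 DNAJC genes 9 were higher (median 0.18), and of the 4 DNAJB genes 2. The 6 thioredoxin family genes split evenly (median -0.002), as did the 4 glutathione S-transferases (median 0.23), and the glutathione peroxidases GPX1 and GPX4, of which GPX4 also forms the capsule of the sperm midpiece, were both lower (median -0.04). On the first date alone the HSP70 and HSP110 median was -0.51 and that of CCT -0.23, and on the later dates alone they were -0.10 and 0.05. With the scan date as a block the DNAJC median was -0.04.

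On the later dates alone, HF5 could be set against SF1 and SF5, and limma called 4 of the 55 genes there (7.27%), against 95 of 4286 (2.22%, of which 0.42% higher and 1.8% lower in HF5). Apart from GLO1 they were DNAJC19, a co-chaperone of the mitochondrial import motor (-1.56, SE 0.27, limma adjusted p = 0.00466), HSPA5, the HSP70 of the endoplasmic reticulum (-1.31, SE 0.28, limma adjusted p = 0.0216), and TXNDC3, a thioredoxin-domain protein of the sperm fibrous sheath and of axonemes (-1.60, SE 0.30, limma adjusted p = 0.00642). TXNDC3 was named after its values were seen. DNAJC19 was at -2.32 in HF5 and at -0.74 and -0.78 in SF1 and SF5. HSPA5 was at -1.72 against -0.20 and -0.63, and TXNDC3 at -2.15 against -0.25 and -0.84. HF5 lies below both others at these 3 genes, and at all 4 called genes its IP signal was not well above background, so its value there is not exact. At TXNDC3 the IP signal was well above background in SF1 alone, so its difference is not exact on either set of dates. On the first date DNAJC19 differed the other way (0.99) and HSPA5 the same way (-1.13); limma called 0 genes on that date, with 2.71% of all genes at an unadjusted p below 0.05. These calls have 1 residual degree of freedom and assume that the lone bull varies like the others.

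**Figure D4:**
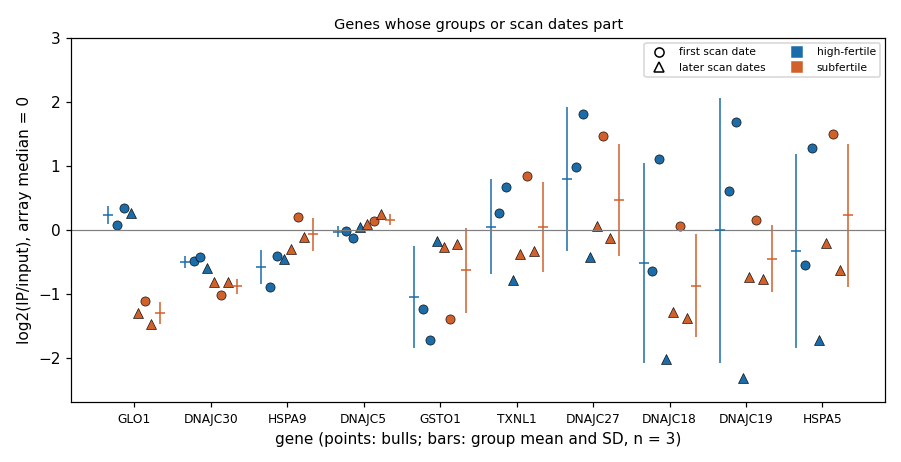
Log2(IP/input) in each of the 6 bulls for the 4 genes whose groups do not overlap (GLO1, DNAJC30, HSPA9, DNAJC5) and the 6 genes called between scan dates; blue and orange mark high-fertile and subfertile bulls, circles the first and triangles the later scan dates, and bars the group mean and SD (n = 3). In the first 4 genes colours separate, with a gap over 1 only for GLO1; in the last 6 it is shapes that separate, or nearly so.

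More of these genes were called between scan dates than between fertility groups. In a fit that also held the fertility group, limma called 6 of the 55 genes between the later and the first dates (10.9%), against 861 of 4286 (20.1%; 7.3% higher and 12.8% lower on the later dates). GSTO1 was higher on the later dates, and DNAJC18, DNAJC19, DNAJC27, HSPA5 and TXNL1 were lower. Centred over the tested probes instead of all probes, the split over all genes moved from 313 higher and 548 lower to 171 higher and 876 lower. The number called depended on single arrays: without HF5, SF4 or SF5, 0 of the 55 genes were called, without SF1 only DNAJC27, without HF3 there were 7 and without HF2 there were 11.

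GSTO1, a glutathione transferase of the omega class, was the one that rose on the later dates. Its mean over 2 overlapping probes was -1.24, -1.73 and -1.40 in HF2, HF3 and SF4, and -0.17, -0.28 and -0.22 in HF5, SF1 and SF5. The 2 sets of dates do not overlap, and the difference was 1.23 (SE 0.25, limma adjusted p = 0.0204). Its fertility difference was -0.003 with the scan date as a block. The 20 tested unnamed probes around it moved the same way, from a mean of -0.82 on the first date to -0.14 on the later dates, a difference of 0.67 between those means. At the printed probe the IP signal differed by 0.96 and the input signal by -0.54 between the dates, and IP was well above background in 1 of 3 bulls on the first date and in 3 of 3 on the later dates.

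The 5 genes that fell on the later dates differed by -1.23 to -2.19. DNAJC27, a J-domain protein with a Rab-like GTPase domain, was at 0.97, 1.81 and 1.46 in HF2, HF3 and SF4 and at -0.42, 0.05 and -0.13 in HF5, SF1 and SF5 (difference -1.66, SE 0.30, limma adjusted p = 0.0151). Its IP signal was well above background in all 6 bulls, against 5 bulls at DNAJC19, 4 at DNAJC18, 4 at HSPA5 and 2 at the printed TXNL1 probe. DNAJC19 went from 0.60, 1.69 and 0.15 to -2.32, -0.74 and -0.78 (-2.19, SE 0.59, limma adjusted p = 0.0429). DNAJC18 went from -0.65, 1.10 and 0.05 to -2.02, -1.30 and -1.38 (-1.81, SE 0.49, limma adjusted p = 0.0433). The dates do not overlap for these 3 DNAJC genes, each of which rests on 1 probe without a CpG.

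HSPA5 was at -0.55, 1.28 and 1.5 in HF2, HF3 and SF4 and at -1.72, -0.20 and -0.63 in HF5, SF1 and SF5. HF2 lies among the later bulls, so the dates overlap, and the difference was -2.0 (SE 0.49, limma adjusted p = 0.0339). TXNL1, a thioredoxin-like protein of the proteasome, went from 0.27, 0.66 and 0.85 to -0.78, -0.39 and -0.34 (-1.23, SE 0.24, limma adjusted p = 0.0176). Its printed probe without CpGs fell by 2.12, and its other tested probe, with 1 CpG, differed by -0.34 without passing. With normexp correction the TXNL1 difference was -0.21 and no longer called, as it was when only probes with IP above background on all arrays were kept (-0.34). There were 0 tested unnamed probes within 500 bases of any of these 5 genes.

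Tested probes with more CpGs had a higher median scan-date difference. The values below are centred over all probes, and where 0 falls depends on that choice. Over all tested probes the median difference was 0.27, and 0.03 when centred over the tested probes. Limma then called 1115 probes higher and 1819 lower on the later dates, instead of 7194 and 1747. All 14 tested probes without a CpG were lower on the later dates, with a median of -0.92, and the medians were -0.11 with 1 CpG (18 probes), 0.09 with 2 (18 probes), 0.33 with 3 (21 probes) and 0.37 with 4 or more (19 probes). Over all named tested probes the medians were -0.71, -0.30, 0.17, 0.26 and 0.37 in the same order. Over all 110686 tested probes, most of them without a gene name, they were -0.07, 0.17, 0.26, 0.31 and 0.33, and of the probes without a CpG 2139 were higher and 2529 lower on the later dates, so the pattern was much weaker there. Pearson's r between CpG count and scan-date difference was 0.55 over these 90 probes, 0.38 over the 7644 named ones and 0.12 over all tested probes, as a description, since probes share the 6 arrays. Limma called 8 of the 90 probes between dates (8.89%), against 8.08% of all tested probes (6.5% higher and 1.58% lower on the later dates): the 2 that rose, in GSTO1 and HSPB6, hold 3 CpGs each, and the 6 that fell, in DNAJC19, DNAJC27, GSTM1, TXNL1, HSPA5 and HSPH1, hold 1 or none.

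**Figure D5:**
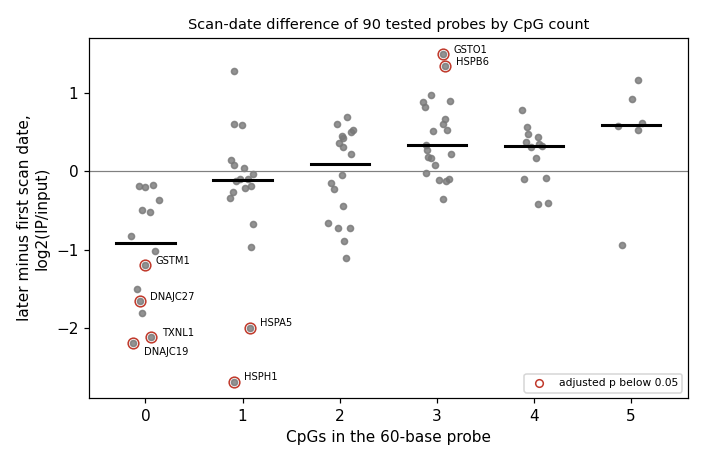
Difference in log2(IP/input) between the later and the first scan dates for each of the 90 tested probes, by the number of CpGs in the probe; black bars are medians and red rings mark probes with a limma adjusted p below 0.05. All probes without a CpG lie below 0, and the ringed probes above 0 hold 3 CpGs.

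Probes of 1 gene could part in opposite directions. At HSPH1 the probe with 1 CpG had 0.60, 1.26 and 1.5 in HF2, HF3 and SF4 and -2.24, -0.45 and -0.96 in HF5, SF1 and SF5, a fall of 2.68 (SE 0.34, limma adjusted p = 0.0273). The HSPH1 probes with 3, 4 and 5 CpGs were higher on the later dates by 0.51, 0.78 and 0.58, none past the threshold, so the gene's mean moved by only -0.20 (SE 0.25). DNAJC30 had 1.17 at its probe with 5 CpGs and -1.11 at its probe with 2, neither past the threshold, and the gene at 0.03. At the called HSPB6 probe, which rose by 1.34 (SE 0.25, limma adjusted p = 0.0311), the IP signal differed by -0.08 and the input by -1.37 between dates, and the 8 tested unnamed probes around the gene's tested probes were higher by 1.06. Beyond the slides and the extraction protocol of SF1, what else differed between dates is not stated in the sources used here. The part of any of these in the values was not tested.

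Across all 6 bulls the level of these genes lay a little below the array median. The median level of the 55 genes was -0.23, against -0.14 over all 4286, and 40 of the 55 had a mean below 0, against 2760 of the 4286. In all 6 bulls 13 of the 55 were below 0 and 0 were above, against 806 and 138 of the 4286. The lowest were HSPA8, the constitutive HSP70 of the cytosol (-1.44 ± 0.35, SD, n = 6), BAG5, an HSP70 co-chaperone (-1.22 ± 0.31), TXNDC9, a regulator of CCT (-1.17 ± 0.73), and CCT5 (-1.08 ± 0.40). HSPA8 rests on 1 probe without a CpG, BAG5 on 1 with 4 CpGs and TXNDC9 on 1 with 1 CpG. HSPA8 ran from -1.87 to -0.90, but its IP signal was well above background in SF1 alone and in 0 of 3 high-fertile bulls, so it is low without an exact value. BAG5 likewise had its IP well above background in 0 of 3 bulls of the first date. At TXNDC9 the IP signal was not well above background in SF4 or in HF2, where the value was -2.47.

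CCT5 is the best measured of the low genes. It rests on 4 tested probes with 2 to 4 CpGs and ran from -1.51 in SF5 to -0.58 in HF5. Its IP signal was above background at 4 of its 12 spots in the high-fertile and 9 of its 12 in the subfertile bulls. By scan date the split was the same, with 4 of 12 on the first and 9 of 12 on the later dates. No spot was above background in HF2. The 24 tested unnamed probes around CCT5 had means from -0.96 to -0.46 in the 6 bulls. The other tested CCT subunits were CCT2 at -0.37, CCT3 at -0.18, CCT6B at -0.23 and CCT7 at -0.32, so all 5 had means below 0, as had 2760 of all 4286 genes.

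The highest levels were those of DNAJC27 (0.63 ± 0.92), PDIA2, a disulfide isomerase (0.50 ± 0.79), DNAJC6, the auxilin that uncoats clathrin vesicles (0.42 ± 0.63), and BAG3, the co-chaperone of the small heat shock proteins (0.37 ± 0.45). Their spread over bulls is as large as their distance from the array median, so the order of these 4 is not settled. Each rests on 1 tested probe, which holds no CpG in DNAJC27 and DNAJC6, 1 in PDIA2 and 2 in BAG3. The IP signal was not well above background at DNAJC6 in HF2, SF4 and SF5. The same held at PDIA2 in HF2 and SF4, and at BAG3 in SF4. PDIA2 was at 0.48, -0.20 and 1.26 in HF2, HF3 and HF5 and at 0.37, -0.46 and 1.56 in SF1, SF4 and SF5. The 3 tested unnamed probes beside PDIA2 were above 0 in all 6 bulls, with means from 0.15 to 1.01.

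No tested probe represented 39 of the 94 genes. Among them were both heat shock factors, HSF1 and HSF2, which switch on chaperone genes, both mitochondrial chaperonin genes, HSPD1 and HSPE1, the inducible HSP90AA1, 2 of 3 peroxiredoxins (PRDX3 and PRDX4), 3 of 4 disulfide isomerases and 6 of 8 glutathione peroxidases, including the epididymal GPX5. Of the 672 spots of their and other untested probes, input was well above background at 253 and IP at 123. Their ratios on all probes were lower on the later dates in 36 of the 39 genes. Most genes of the array fell in that setting, with a median scan-date difference of -0.85 over all 7932. With no filter limma called 33 of the 94 genes lower and 0 higher on the later dates (35.1% lower), against 33.1% lower and 2.11% higher of all 7932 genes. No group difference is given for these 39 genes.

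Other genes of the same pathways gave 0 calls between groups and 4 between scan dates. Of 65 related genes listed by their function (regulators of the oxidative stress response, glutathione synthesis, further chaperones and their co-factors) 35 are on the array and 18 were tested. Of these 18, 8 were higher and 10 lower in the high-fertile bulls with a median of -0.13, and limma called 0. HYOU1, an HSP70-like chaperone of the endoplasmic reticulum, was the only one of the 18 with non-overlapping groups, against 166 of all 4286 genes (3.87%). Its values were -0.31, -0.48 and -0.17 in HF2, HF3 and HF5 and -0.01, 0.33 and 0.12 in SF1, SF4 and SF5. The difference was -0.47 (SE 0.27, limma adjusted p = 0.99989). NFE2L2, the regulator of antioxidant genes, was at 0.08 (SE 0.34). Between scan dates 4 of the 18 were called, against 20.1% of all genes: P4HB, the main disulfide isomerase, was higher on the later dates by 1.48, and ERO1LB, GCLM and PFDN2 fell by 3.06, 2.53 and 1.78. These 4 and NFE2L2 were named after their values were seen.

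Marker genes of other cells in semen were looked at for the labelled cell type. Of 5 leukocyte genes 2 were tested and of 5 epithelial genes 4, and limma called 0 of either list between groups or dates. The leukocyte genes PTPRC and RUNX3 were at -0.05 ± 0.47 (SD, n = 6) and -0.16 ± 0.37. The epithelial genes were on both sides of 0, with CDH1 at 0.56 ± 0.31 and above 0 in all 6 bulls, KRT8 at 0.14 ± 0.47, ESRP1 at -0.21 ± 0.14 and DSP at -0.39 ± 0.35. Of the 4 tested genes with a maternal mark, SGCE was at -0.74 ± 0.17 and below 0 in all 6 bulls, PLAGL1 at -0.24 ± 0.69, PEG10 at 0.02 ± 0.33 and IGF2R at 0.28 ± 0.26. The 4 paternally marked genes H19, RASGRF1, MEG3 and RTL1 lay between -0.15 and 0.08, within the range of the maternally marked ones, so these probes did not separate the 2 kinds of imprinted gene. The part of other cells in the values above was not tested.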

How the data were processed

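Per the file headers, the deposited scanner tables give spot intensities extracted by the authors with Agilent Feature Extraction 10.7.3.1 (ChIP protocol on 5 arrays, CGH protocol on SF1), and the deposited log10 ratio is Cy5 over Cy3. The deposited series table holds that ratio on the log2 scale, matched to the scanner ratios at 177439 probes. Background and saturation flags and probe names were read from the deposited files; 3 of the 6 files, those of the first scan date, give gene names, and the same probe IDs carried them to the other 3. No genome build is stated in the sources used here.

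Log2(IP/input) was computed from processed signals and centred on each array's median over 177440 non-control probes, with no loess or quantile step. Genes were averaged over at least 1 tested probe. Differences were tested with limma 3.58.1 in R 4.3.3 (2-sided, Benjamini-Hochberg over all 4286 genes or 110686 probes, threshold 0.05); the script was tested on simulated data. No dyes were swapped. The number of arrays limits the precision. Figures used matplotlib 3.10.9.

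Members, lists and the naming rule were chosen with earlier results of these data known. The rule names genes with 3 or more tested probes, GLO1, up to 6 per direction with non-overlapping groups and up to 6 called between scan dates, the 4 highest and 4 lowest levels, up to 3 single probes per direction, and at most 14 sequences. A promoter match was not run. Of the 94 symbols, 82 were found in a RefSeq table of a buffalo assembly with 24 numbered chromosomes; the files number chromosomes to 29, so none of its coordinates were used.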

Additional observations from a re-analysis of the deposited data

How the results depend on the processing

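No paired analysis was possible because the groups share only the replicate number 5, which names different bulls. Between the groups limma called 0 genes and 0 probes under every alternative run except the later dates alone (95 genes, 34 probes). Between scan dates it called 2793 genes with no filter, 153 with at least 3 tested probes, 1348 with normexp correction and 0 to 1372 with 1 bull left out. Of probes it called 2930 with no filter, 2934 centred over tested probes, 31080 with normexp, 16395 with IP above background on all arrays and 0 to 20318 with 1 bull left out. Of the genes described here it called 33 with no filter, 0 with at least 3 probes, 16 with normexp and 0 to 11 with 1 bull left out.

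Each gene whose group or scan-date difference is given above was recomputed under each alternative. Among the differences between groups, signs turned as follows, and the cause was not tested. With no filter they were CCT5 -0.15, DNAJC22 0.053, HSPA5 0.32, HSPA9 0.24, HSPB3 0.060 and HSPH1 0.011, and with the scan date as a block added DNAJB6 -0.042, DNAJC19 -0.28, DNAJC27 -0.056, HSPA9 0.095, TXNDC3 -0.21 and TXNL1 -0.11. With the block alone they were DNAJC18 -0.25, DNAJC19 -0.28, DNAJC22 0.038, DNAJC27 -0.23, TXNDC3 -0.21 and TXNL1 -0.40, on the first date CCT5 -0.14, DNAJB6 -0.018, DNAJC22 0.34, DNAJC27 -0.071 and TXNL1 -0.38, and on the later dates DNAJB14 0.018, DNAJC18 -0.68, DNAJC19 -1.56, DNAJC27 -0.38, GSTO1 0.076, PRDX5 0.022, TXNDC3 -1.60 and TXNL1 -0.42. Centred over tested probes DNAJB14, DNAJC22 and HSPB3 were at 0.056, 0.055 and 0.059, and with normexp HSPA5 was at 0.045, HSPB6 at -0.12 and NFE2L2 at -0.032. In the deposited series table TXNL1 was at -0.00038. With the median over probes BAG6 was at 0.10 and HSPH1 at 0.11, and with IP above background on all arrays DNAJC22 was at 0.030 and PRDX5 at 0.15. The scan-date difference of HSPH1 turned to 0.78 with that filter, 0.15 with the median and 0.029 with normexp, that of DNAJC30 to -0.21 centred over tested probes, -0.15 with normexp and -0.0026 in the series table, and that of DNAJC5 to -0.16 centred over tested probes. Leaving out 1 bull gave -0.48 to 0.28 for BAG6, -0.20 to 0.27 for CCT5, -0.094 to 0.069 for DNAJB14, -0.46 to 1.10 for DNAJC18, -0.40 to 1.60 for DNAJC19, -0.18 to 0.10 for DNAJC22, -0.19 to 0.93 for DNAJC27, -1.36 to 0.14 for HSPA5, -0.27 to 0.16 for HSPB3, -0.11 to 0.29 for HSPB6, -0.28 to 0.0075 for HSPH1, -0.18 to 0.32 for NFE2L2, -0.22 to 1.26 for TXNDC3 and -0.30 to 0.42 for TXNL1, and for the scan-date differences -0.15 to 0.21 at DNAJC30, -0.26 to 0.060 at GLO1 and -0.41 to 0.20 at HSPA9. The group differences of GLO1, DNAJC30 and DNAJC5 kept their sign under each alternative that gave them a value. Their groups do not overlap, so leaving out a bull, adding a block or taking a single set of dates could not have turned it. Those alternatives therefore say nothing about how firm the sign is at these genes. The fits with no filter and the block, the values within slides, and the count of called members, were added after the data were seen; the planned promoter match was not run. Dim IP signal limits the first date most.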
